A study of Mus musculus with 6 samples.

Results

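Secretory proteins are folded in the lumen of the endoplasmic reticulum (ER). The genes described here are 39 that encode this machinery: chaperones, disulfide-forming enzymes, prolyl isomerases, components of ER-associated degradation (ERAD) and 3 sensors or transcription factors of the unfolded protein response. They were taken by symbol from a table of 56980 gene IDs, and each of the 39 was found. The counts are of whole islets taken at 14 weeks of age, 3 libraries of genotype SSBP3F/F (control) and 3 of genotype SSBP3F/F; MIP-CreER (knockout), from littermates. Floxed Ssbp3 was thus common to both groups. SSBP3 is a nuclear protein that works with the cofactor LDB1, and MIP-CreER is a Cre recombinase whose activity depends on tamoxifen, expressed under the mouse insulin promoter and so in beta cells. Whether and when tamoxifen was given is not given by the sources at hand, nor is it stated whether a library held islets of 1 mouse or of a pool, so a p-value here reflects only how these libraries vary, which may be technical. Islets with MIP-CreER but without floxed Ssbp3 were not analysed here, and effects of the transgene and of the knockout cannot be told apart.

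In the ER lumen BiP (Hspa5) and GRP94 (Hsp90b1) hold unfolded chains, calnexin and calreticulin hold chains that carry N-glycans, and protein disulfide isomerases form and rearrange disulfide bonds. Chains that do not fold are recognised, moved back across the membrane, ubiquitinated and degraded, which is ERAD. When unfolded chains build up, the sensors IRE1 (Ern1), ATF6 and PERK signal to the nucleus, where spliced XBP1 and cleaved ATF6 raise the transcription of chaperone and ERAD genes. Beta cells are known for a large load on this machinery, because proinsulin enters the ER in great amounts and folds only with its disulfide bonds formed.

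The best known DNA element of this response is the ER stress response element (ERSE). It reads CCAAT, then 9 bases of any kind, then CCACG, and NF-Y binds its CCAAT part and cleaved ATF6 or XBP1 its CCACG part. RefSeq promoter windows (build GRCm38.p6, 250 bases before to 50 after the start) were at hand for 34 of the 39 genes, and missing for Hyou1, Sil1, Manf, Derl1 and Atf6. The exact element, searched on both strands, stood in the windows of 10 of these 34 genes (29.4%), against 37 of the 27025 genes with a RefSeq window (0.137%). With 1 mismatch outside the spacer allowed it stood in 16 of the 34 genes (47.1%) and in 466 of the 27025. The 10 genes were Hspa5, Hsp90b1, Dnajc3, Creld2, Calr, Canx, Pdia6, Ero1lb, Syvn1 and Derl3, and Hsp90b1 held 2 sites. ERSE-II, which reads ATTGG, then 1 base of any kind, then CCACG, stood in windows of 2 genes, Dnajb11 and Herpud1 (0.0444% of all genes with a window). The core UPRE, spelled TGACGTGG, stood in the windows of Txndc5 and Txndc11 (0.714% of all such genes). CCACG alone, which is contained in both ERSE and ERSE-II, stood in a window of 30 of the 34 genes (88.2%) and of 35.5% of all such genes. Some genes have more than 1 window, and a gene was counted once if any of its windows held the motif. A match describes the letters of the window and shows no binding.

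The following 59-base stretches carry the ERSE of 8 of the genes and are shown because the change in expression of each gene is read against its element further on. Each is given 5′ to 3′ on the strand of its gene, with GRCm38.p6 coordinates and with the CCAAT and CCACG parts, or their reverse complements ATTGG and CGTGG where the element runs backwards, in capitals.

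Hspa5, chr2:34772005-34772063, plus strand: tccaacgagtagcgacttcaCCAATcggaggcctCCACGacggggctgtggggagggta
Hsp90b1, upstream site, chr10:86705618-86705676, minus strand: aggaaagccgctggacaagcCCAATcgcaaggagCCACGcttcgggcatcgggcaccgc
Hsp90b1, downstream site, chr10:86705513-86705571, minus strand: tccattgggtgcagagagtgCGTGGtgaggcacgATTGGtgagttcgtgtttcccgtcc
Creld2, chr15:88819500-88819558, plus strand: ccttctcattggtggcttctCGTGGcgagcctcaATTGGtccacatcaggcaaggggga
Calr, chr8:84847055-84847113, minus strand: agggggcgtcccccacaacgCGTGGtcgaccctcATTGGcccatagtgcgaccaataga
Pdia6, chr12:17266471-17266529, plus strand: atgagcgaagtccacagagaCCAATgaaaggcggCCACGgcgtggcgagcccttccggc
Ero1lb, chr13:12565662-12565720, plus strand: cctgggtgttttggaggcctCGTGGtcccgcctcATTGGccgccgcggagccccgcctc
Dnajc3, chr14:118937807-118937865, plus strand: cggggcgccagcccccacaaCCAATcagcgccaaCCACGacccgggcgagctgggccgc
Canx, chr11:50325780-50325838, minus strand: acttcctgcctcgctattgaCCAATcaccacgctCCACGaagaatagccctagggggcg

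The first 6 genes of this set were called lower in knockout islets, and the last 2, Dnajc3 and Canx, were not called. Syvn1 and Derl3, whose elements are not printed, were not called either.

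The libraries held 14907641 to 225428920 counts. The shallowest of each group were control 1 (17587055 counts) and knockout 1 (14907641 counts), and these share no stated batch. Libraries are named control 1 to 3 and knockout 1 to 3 after their columns, since the labels do not tie a column to an animal. Ssbp3 itself measured 65.8, 81.3 and 74.2 CPM (counts scaled to library size) across controls 1, 2 and 3, and 52.3, 58.1 and 57.1 CPM across knockouts 1, 2 and 3, lower in each knockout library but not called (edgeR adjusted p = 0.0581). These counts do not measure recombination in beta cells alone. Some published MIP-CreER lines carry a human growth hormone segment, and whether this line does is not given in any source at hand. Tph1 and Cish, which growth hormone and prolactin receptor signalling is known to raise in islets, measured 0 to 0.124 and 15.3 to 17.6 CPM across the controls and 6.35 to 11.6 and 50.1 to 74.6 CPM across the knockouts. Both were called higher by edgeR (adjusted p 7.86e-06 and 2.34e-05), and their part in the results on the ER genes was not tested.

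Among the genes of ER protein folding, those that changed were lower in knockout islets. By edgeR's quasi-likelihood test, with an adjusted p under 0.05 over 18558 genes tested, 17 of the 39 fell, 0 rose and 22 were not called. Over all genes 3.35% were called lower and 3.72% higher. The median log2 fold change of the 39 was -0.42, beside -0.00163 over all genes tested, and 33 of the 39 had a value below 0. All 39 passed the filter on low counts. In 26 of the 39 each knockout library lay below each control library, and in 2, Sil1 and Ern1, above, beside 14.1% and 14.0% of all genes. DESeq2 called 20 lower, with 5.32% of all genes. Without the shallow library knockout 1 the test called 9 of them lower, with 1.38% of all genes, and it called 11 without control 2, with 1.16% of all genes, and 10 without knockout 2, with 2.05%. Leaving out both shallow libraries left 2, Sdf2l1 and Ppib, with 0.252% of all genes. The median of the 39 was then -0.47.

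**Figure D1:**
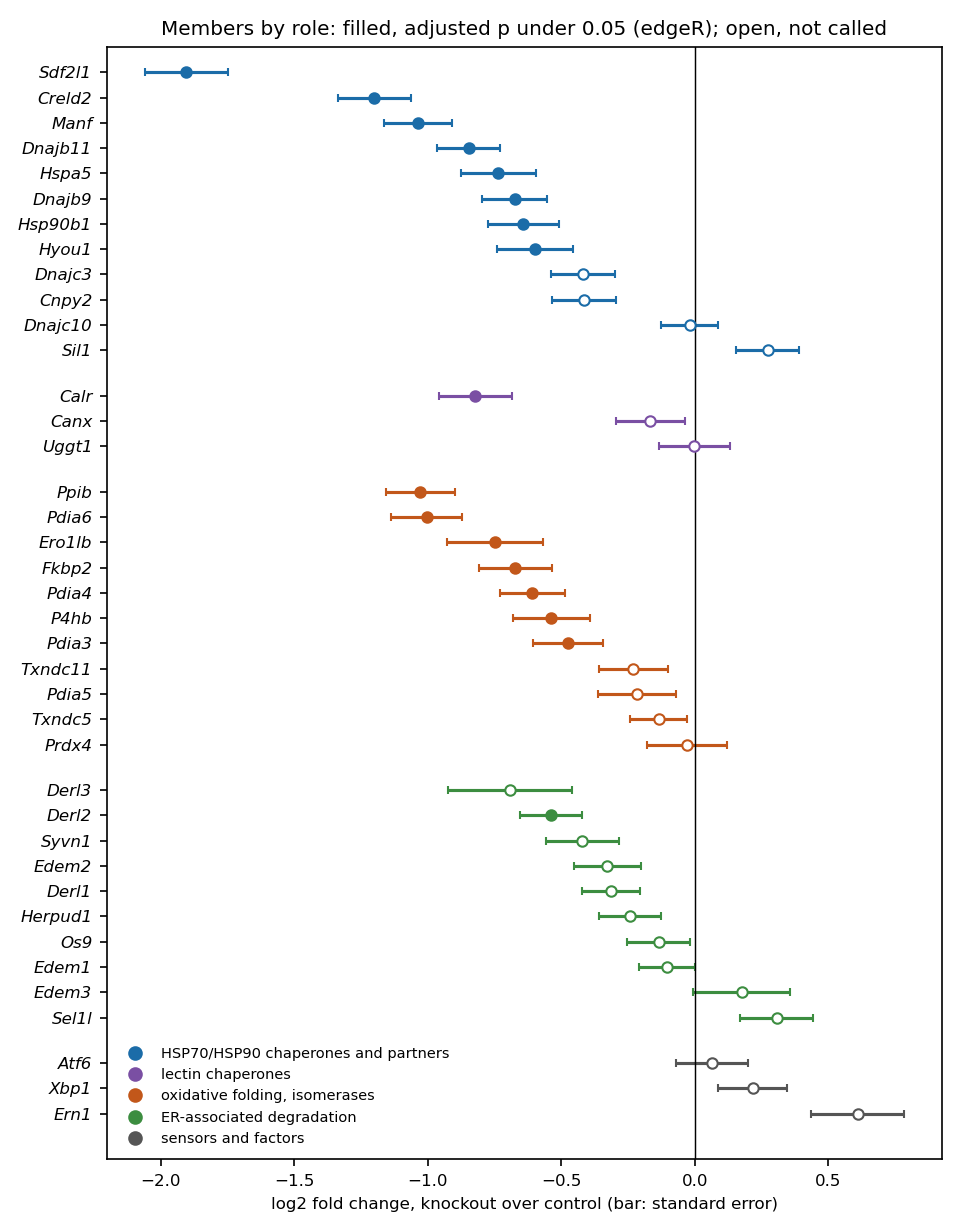
Log2 fold change of knockout over control for each of the 39 genes, ordered within 5 roles, with bars of 1 standard error; filled points passed the edgeR test at an adjusted p under 0.05 and open points did not. The 17 filled points all lie below 0 and belong to the chaperone, lectin, oxidative folding and degradation roles, while the 3 sensors lie above 0 and are open.

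The lumenal HSP70 and HSP90 chaperones and their partners were the role with the most calls. Of its 12 genes 8 fell and 4 were not called, and the median log2 fold change was -0.66. Their summed level was lower in each knockout library: 6010, 6582 and 5992 CPM in control 1, 2 and 3 against 3682, 3695 and 4065 CPM in knockout 1, 2 and 3. The knockout mean was 61.6% of the control mean.

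Sdf2l1 (ENSMUSG00000022769), a partner of BiP and its J-domain cochaperones that keeps client proteins soluble, changed most among the 39. It measured 280, 352 and 231 CPM across controls 1, 2 and 3 and 68.4, 83.6 and 78.4 CPM across knockouts 1, 2 and 3. The lowest control library was thus well above the highest knockout library. The log2 fold change was -1.90 (SE 0.156, edgeR adjusted p = 2.93e-05), a 3.74-fold decrease, and the gene was called in each of 16 alternative analyses. Its promoter window held no exact ERSE.

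Creld2 (ENSMUSG00000023272) and Manf (ENSMUSG00000032575) encode small secreted or ER-retained proteins that are raised by ER stress. Creld2 measured 168, 216 and 153 CPM across the controls and 74.9, 81.2 and 78.1 CPM across knockouts 1, 2 and 3. The knockout values lay close together, and the log2 fold change was -1.20 (SE 0.136, edgeR adjusted p = 0.000345). Manf, which also supports the survival of beta cells, measured 457, 512 and 416 CPM across the controls and 236, 234 and 205 CPM across the knockouts. It fell 2.05-fold, with a log2 fold change of -1.04 with SE 0.127 (edgeR adjusted p = 0.000531).

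Hspa5 (ENSMUSG00000026864), which encodes BiP, had the highest CPM of the 39 in each control library. It measured 2070, 2276 and 2117 CPM across controls 1, 2 and 3 and 1237, 1283 and 1361 CPM across knockouts 1, 2 and 3. Replicates differed little beside the gap between the groups. Its log2 fold change was -0.74 (SE 0.140, edgeR adjusted p = 0.00847), and it lost the call without knockout 1 (adjusted p = 0.0623). Hsp90b1 (ENSMUSG00000020048), the ER form of HSP90, measured 934, 949 and 899 CPM across the controls and 581, 540 and 663 CPM across the knockouts. It fell by 0.64 on the log2 scale (SE 0.132, edgeR adjusted p = 0.0129), a call lost without knockout 1 (0.0732) or knockout 2 (0.0713). Both genes carry the ERSE shown above.

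BiP works with J-domain proteins that deliver clients and with nucleotide exchange factors that release them. Of the J-domain genes, Dnajb11 (ERdj3) measured 165, 189 and 160 CPM across the controls and 85.9, 101.6 and 99.0 CPM across the knockouts (log2 fold change -0.85, SE 0.118, edgeR adjusted p = 0.00137). Dnajb9 (ERdj4), which also holds IRE1 inactive, measured 456, 430 and 398 CPM across the controls and 259, 252 and 294 CPM across the knockouts (log2 fold change -0.67, SE 0.122, edgeR adjusted p = 0.00614). Both were lower in each knockout library and kept the call whichever single library was left out. Dnajc3 (p58IPK) measured 373 to 414 CPM across the controls and 271 to 315 CPM across the knockouts, without overlap, and was not called (edgeR adjusted p = 0.0528). It was called lower in 8 of 16 alternative analyses (adjusted p 0.0124 to 0.0422), among them DESeq2, limma-voom and edgeR without knockout 3. Dnajc10 (ERdj5), a reductase for ERAD clients, measured 110 to 117 and 104 to 119 CPM, with a log2 fold change of -0.02 (SE 0.107).

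Hyou1 (GRP170), an exchange factor of BiP, measured 763, 880 and 900 CPM across the controls and 499, 530 and 649 CPM across the knockouts, and fell by 0.60 on the log2 scale (SE 0.143, edgeR adjusted p = 0.0254). That call was lost without control 1, 2 or 3 (adjusted p 0.0508, 0.0962 and 0.0516) and without knockout 1 or 2 (0.128 and 0.104). Sil1, another exchange factor, measured 89.1, 93.7 and 97.6 CPM across the controls and 129, 107 and 103 CPM across the knockouts. Each knockout library was above each control library, but the log2 fold change of 0.27 (SE 0.118) was not called (edgeR adjusted p = 0.196). Cnpy2, a saposin-like ER protein, measured 127 to 159 CPM across the controls and 99.7 to 115 CPM across the knockouts and was not called (edgeR adjusted p = 0.0563), but 7 of the 16 alternatives called it lower (adjusted p 0.0214 to 0.0476), among them DESeq2, limma-voom and edgeR without control 3.

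**Figure D2:**
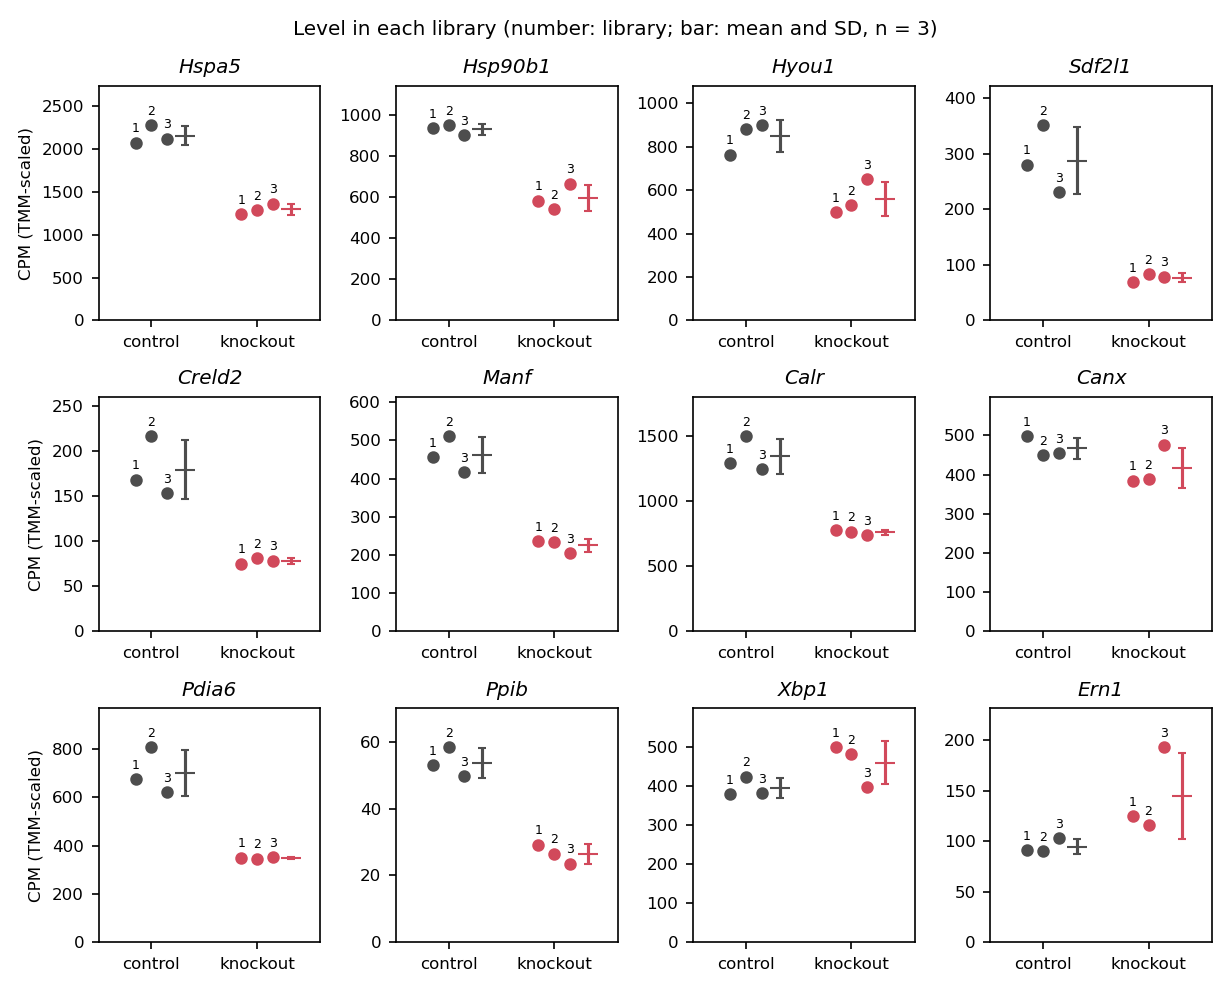
CPM (vertical axes, from 0) of 12 of the 39 genes in each library; numbered points are libraries 1 to 3 of control (grey) and knockout (red), and bars are the mean and SD of 3. Sdf2l1, Creld2, Manf, Calr, Pdia6 and Ppib have all 3 knockout points well under the controls, Canx and Xbp1 overlap, and Ern1 reaches 193 CPM in knockout 3.

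Calr (ENSMUSG00000003814) was the lectin chaperone that changed. Calreticulin binds glucosylated N-glycans in the lumen and stores calcium. Calr measured 1286, 1496 and 1241 CPM across controls 1, 2 and 3 and 774, 765 and 739 CPM across knockouts 1, 2 and 3, so the 3 knockout values were nearly equal and all below the controls. Its log2 fold change was -0.82 (SE 0.136, edgeR adjusted p = 0.00370). Canx, the membrane-bound calnexin of the same cycle, measured 499, 450 and 454 CPM across the controls and 385, 389 and 476 CPM across the knockouts. Knockout 3 lay within the control range, and the log2 fold change of -0.17 (SE 0.130) was not called (edgeR adjusted p = 0.510). Uggt1, which tags misfolded glycoproteins for another round of the cycle, measured 184 to 205 CPM across the controls and 173 to 234 CPM across the knockouts, with a log2 fold change of -0.00103 (SE 0.133). Calr and Canx both carried an exact ERSE in their windows.

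Oxidative folding genes fell in 7 of 11 cases, with a median log2 fold change of -0.54. Their summed level was 4764, 5279 and 4877 CPM across the controls and 3342, 3161 and 3446 CPM across knockouts 1, 2 and 3, with a knockout mean at 66.7% of the control mean. The largest changes were in Ppib and Pdia6. Ppib (ENSMUSG00000032383), cyclophilin B, a prolyl isomerase, measured 53.0, 58.4 and 49.6 CPM across the controls and 29.2, 26.5 and 23.5 CPM across the knockouts. It fell 2.04-fold (log2 fold change -1.03, SE 0.129, edgeR adjusted p = 0.000636) and was called in each of 16 alternatives. Pdia6 (ENSMUSG00000020571), a disulfide isomerase that also limits IRE1 signalling, measured 676, 808 and 622 CPM across the controls and 351, 346 and 353 CPM across the knockouts. Controls varied more than knockouts, and the gene fell 2.01-fold (SE of log2 0.133, edgeR adjusted p = 0.000961).

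Ero1lb (ENSMUSG00000057069) encodes the ERO1-beta oxidase, which passes electrons from disulfide isomerases to oxygen and is abundant in islets. It measured 670, 546 and 666 CPM across the controls and 312, 316 and 493 CPM across the knockouts. Knockout 3 was well above the other knockouts and still below the controls. The log2 fold change was -0.75 (SE 0.179, edgeR adjusted p = 0.0254), and it was not called without control 1 (0.107), control 3 (0.0587), knockout 1 (0.124) or knockout 2 (0.0923). Prdx4, a peroxiredoxin that offers another route of oxidation, measured 28.6 to 36.3 CPM across the controls and 25.7 to 34.2 CPM across the knockouts, and its groups overlapped (log2 fold change -0.03, SE 0.151).

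Among the other disulfide isomerases, P4hb (PDI, ENSMUSG00000025130) was the most abundant. It measured 1409, 1770 and 1677 CPM across the controls and 1131, 1080 and 1138 CPM across the knockouts, and fell by 0.54 on the log2 scale (SE 0.143, edgeR adjusted p = 0.0413). Pdia3 (ERp57), the isomerase that calnexin and calreticulin recruit, measured 1214, 1275 and 1154 CPM across the controls and 920, 829 and 874 CPM across the knockouts (log2 fold change -0.47, SE 0.131, edgeR adjusted p = 0.0480). Neither group pair overlapped, yet both calls were lost whichever library was left out (adjusted p 0.0542 to 0.167 for P4hb and 0.0550 to 0.192 for Pdia3). Pdia3 also lost it in edgeR with DESeq2 size factors or with hormone and acinar genes out of the library sizes. Pdia4 (ERp72) measured 263, 283 and 229 CPM across the controls and 171, 156 and 181 CPM across the knockouts (log2 fold change -0.61, SE 0.122, edgeR adjusted p = 0.0114; lost without control 2, knockout 1 or knockout 2 at 0.0625, 0.0568 and 0.0556). Fkbp2, a prolyl isomerase, measured 157, 173 and 138 CPM across the controls and 115, 96.2 and 83.5 CPM across the knockouts (log2 fold change -0.67, SE 0.138, edgeR adjusted p = 0.0126; lost without control 1 or 2 at 0.0510 and 0.0625). The isomerase genes Pdia5, Txndc5 and Txndc11 were not called, with log2 fold changes of -0.22 (SE 0.146), -0.14 (SE 0.105) and -0.23 (SE 0.130). Txndc5 measured 187 to 202 CPM across the controls and 176 to 179 CPM across the knockouts, while Pdia5 and Txndc11 overlapped between the groups.

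Of the ERAD genes 1 of 10 fell and 9 were not called, and the median log2 fold change was -0.28. In 7 of the 10 each knockout library lay below each control library, and in 0 above, beside 14.1% and 14.0% of all genes. Their summed level was 1371, 1529 and 1514 CPM across the controls and 1309, 1231 and 1350 CPM across the knockouts, at a mean of 88.1% of control. The gene that fell was Derl2 (ENSMUSG00000018442), a derlin of the channel through which clients leave the ER. It measured 96.2, 93.5 and 79.5 CPM across the controls and 63.6, 57.3 and 64.3 CPM across the knockouts (log2 fold change -0.54, SE 0.117, edgeR adjusted p = 0.0163). Each knockout library was below each control library, but the call was lost without control 1 (0.0680), control 2 (0.0840), knockout 1 (0.0592) or knockout 2 (0.0714). Derl1 measured 186 to 212 CPM across the controls and 153 to 166 CPM across the knockouts and was not called (log2 fold change -0.31, SE 0.109, edgeR adjusted p = 0.109). Derl3, a derlin raised by ER stress, had the lowest CPM of the 39, 6.15, 9.37 and 8.10 in control and 5.30, 5.45 and 4.04 in knockout libraries (log2 fold change -0.69, SE 0.231, edgeR adjusted p = 0.0923), and it was called lower by DESeq2 and by limma-voom (adjusted p 0.0453 and 0.0280).

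The ubiquitin ligase HRD1 (Syvn1) and its partner SEL1L form the core of ERAD for lumenal clients. Syvn1 measured 68.6, 89.0 and 99.4 CPM across the controls and 63.5, 60.4 and 68.5 CPM across the knockouts, and was not called (log2 fold change -0.42, SE 0.138, edgeR adjusted p = 0.0872), while 5 of 16 alternatives called it lower (adjusted p 0.0189 to 0.0481), among them edgeR without control 1. Sel1l measured 116, 108 and 139 CPM across the controls and 143, 133 and 174 CPM across the knockouts. Its groups overlapped and its log2 fold change was 0.31 (SE 0.136, edgeR adjusted p = 0.212). Herpud1 encodes a partner of the ligase and is raised strongly by ER stress. It measured 272 to 324 CPM across the controls and 243 to 255 CPM across the knockouts (log2 fold change -0.24, SE 0.116, edgeR adjusted p = 0.248). Of the EDEM lectins and mannosidases that mark glycoproteins for disposal, Edem1, Edem2 and Edem3 had log2 fold changes of -0.10 (SE 0.104), -0.33 (SE 0.125) and 0.18 (SE 0.183). Edem3 reached 82.6 CPM in knockout 3, against 51.0 and 51.1 CPM in knockout 1 and 2. Os9, a lectin that delivers glycoproteins to SEL1L, measured 268 to 321 CPM across the controls and 254 to 279 CPM across the knockouts (log2 fold change -0.13, SE 0.118).

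The 3 sensors and transcription factors had log2 fold changes above 0, and none was called. Ern1 (ENSMUSG00000020715) measured 91.0, 90.3 and 103 CPM across the controls and 125, 116 and 193 CPM across the knockouts. Knockout 3 stood apart, and all 3 knockouts were above the controls. The log2 fold change was 0.61 (SE 0.173, edgeR adjusted p = 0.0557), and the gene was called in 4 of 16 alternatives: no filter, DESeq2, acinar marker level as a covariate, and without knockout 2 (0.0226). Xbp1 measured 380, 424 and 382 CPM across the controls and 500, 482 and 398 CPM across the knockouts, with knockout 3 inside the control range (log2 fold change 0.22, SE 0.130, edgeR adjusted p = 0.371). Gene counts do not separate spliced from unspliced Xbp1. Atf6 measured 79.6 to 96.2 CPM across the controls and 84.3 to 112 CPM across the knockouts (log2 fold change 0.06, SE 0.136).

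Levels between genes can be compared only per length, here as CPM per kilobase of annotated exons. The length joins the exons of all annotated transcripts of a gene, so the order of genes depends on which transcripts are annotated. On that scale the most abundant of the 39 in control islets were P4hb at 566 ± 65.6, Hspa5 at 509 ± 25.4, Calr at 466 ± 47.4 and Pdia3 at 387 ± 19.3 (mean ± SD, n = 3 per group). P4hb, Hspa5 and Calr lay within their spread of one another, although their order was the same within each control library. Sdf2l1 came next at 260 ± 54.6, close to Hsp90b1 at 230 ± 6.41. In knockout islets Sdf2l1 stood at 69.3 ± 6.95, within its spread of Manf at 63.9 ± 4.83, while Hsp90b1 stood at 147 ± 15.6. The least abundant was Derl3 at 3.95 ± 0.813 in control islets, while the sensors Ern1 and Atf6 stood at 11.6 ± 0.859 and 9.74 ± 0.973.

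**Figure D3:**
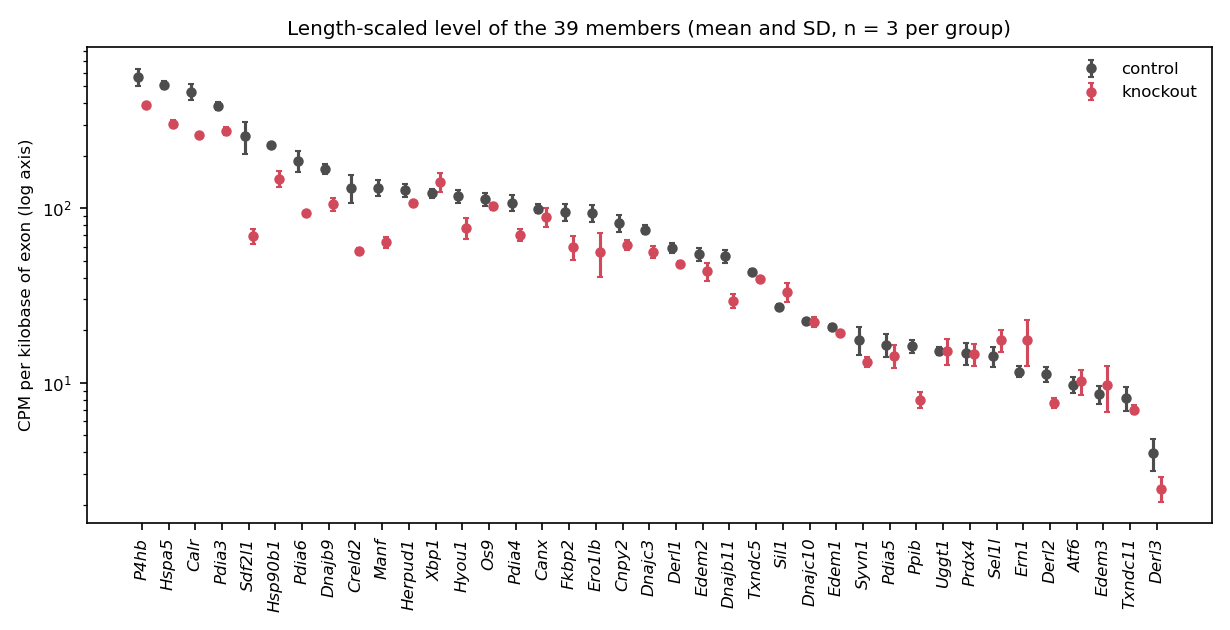
CPM per kilobase of exon (log axis) of each of the 39 genes, ordered by control level; points and bars are the mean and SD of 3 control (grey) and 3 knockout (red) libraries. Control levels run from 566 for P4hb to 3.95 for Derl3, and Sdf2l1 moves furthest, from 260 to 69.3.

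Summed over the 39 genes, control libraries 1, 2 and 3 held 14677, 16127 and 14865 CPM and knockout libraries 1, 2 and 3 held 10378, 10097 and 11013 CPM. The knockout mean was 69.0% of the control mean, a log2 difference of -0.54 (two-sided exact permutation p = 0.1, the smallest that 3 against 3 allows). As a share of all counts the sum was 1.47% ± 0.0118 of control counts and 1.09% ± 0.136 of knockout counts (SD, n = 3). Replicates varied moderately: the median coefficient of variation of the 39 genes was 9.09% among controls and 8.38% among knockouts. Control 2 was the highest control for 23 of the 39 genes and knockout 3 the highest knockout for 22. In whole-islet RNA, fewer cells of a type and less RNA of a gene per cell cannot be told apart.

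Insulin transcripts were also lower in each knockout library. Ins1 and Ins2 together took 162872, 191537 and 216345 CPM across the controls and 130823, 120917 and 139143 CPM across the knockouts, with the knockout mean at 68.5% of control (two-sided exact permutation p = 0.1). By edgeR neither Ins1 nor Ins2 was called (adjusted p 0.109 and 0.234), and reads may be shared between these paralogs. Per 100 insulin counts, the 39 genes gave 9.01, 8.42 and 6.87 counts across the controls and 7.93, 8.35 and 7.92 counts across the knockouts, 8.10 ± 1.11 and 8.07 ± 0.246 (SD, n = 3; two-sided exact permutation p = 1.0). The groups overlapped on this scale, on which control 3 was lowest.

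Ratios of single genes to insulin were taken in the same way. Per 1000 insulin counts Hspa5 gave 11.5 ± 1.51 for control and 9.95 ± 0.595 for knockout islets (SD, n = 3; two-sided exact permutation p = 0.2). Sdf2l1 gave 1.54 ± 0.413 and 0.593 ± 0.0877, and stayed below control in each knockout library. Xbp1 gave 2.10 ± 0.298 in control and 3.55 ± 0.609 in knockout libraries, and Ern1 0.502 ± 0.0495 and 1.10 ± 0.249. For these 3 ratios the groups did not overlap, and the two-sided exact permutation p was 0.1 for each, the smallest the design allows. For Ern1 this outcome was fixed in advance, since Ern1 was higher and insulin lower in each knockout library. Lower insulin counts alone raise such a ratio, also for a gene whose own level did not change. By CPM Xbp1 overlapped between the groups.

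**Figure D4:**
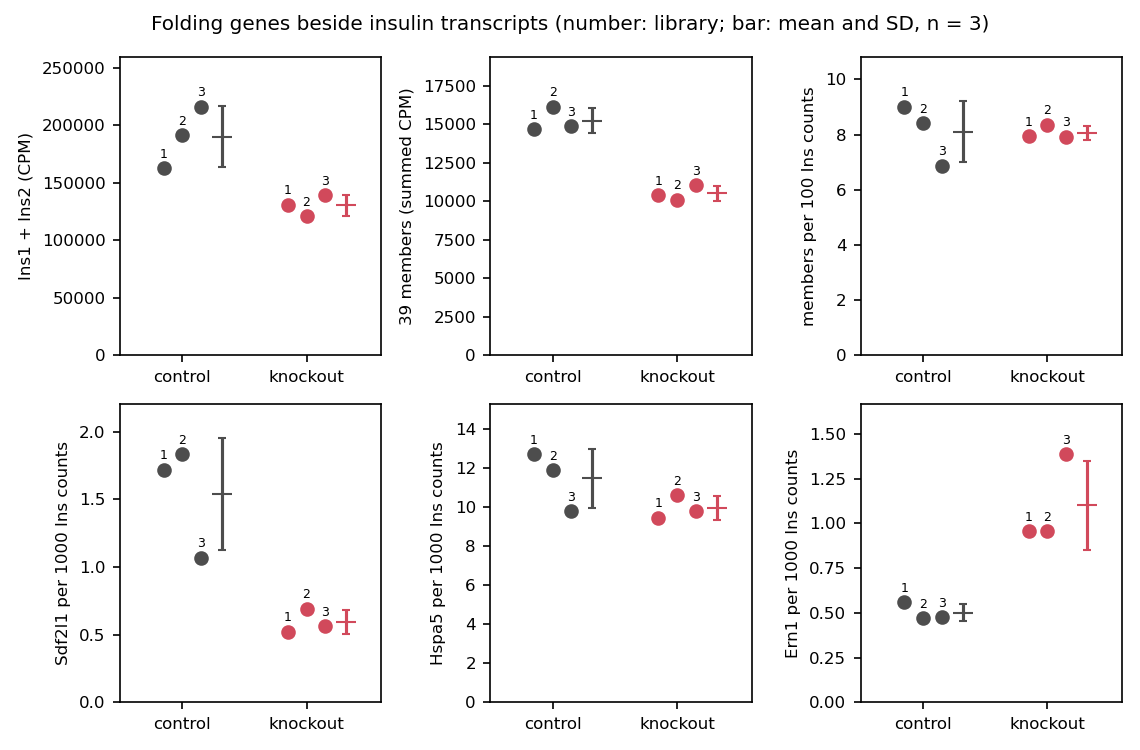
Summed CPM of Ins1 and Ins2, summed CPM of the 39 genes, the 39 genes per 100 insulin counts, and Sdf2l1, Hspa5 and Ern1 per 1000 insulin counts; numbered points are libraries and bars are the mean and SD of 3. Both sums are lower in all 3 knockouts, the 39-gene ratio overlaps between the groups at 8.10 and 8.07, Sdf2l1 stays lower and Ern1 is higher.

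Other cells of an islet preparation also make much secretory protein, and their markers were read beside these results. The 24 acinar markers summed to 36501 to 72521 CPM across the controls and 28086 to 96204 CPM across the knockouts, with 0 of 24 called. With their level as a covariate edgeR called 20 of the 39 genes lower, the 17 among them, with 5.06% of all genes. Plasma and B cell markers summed to 40.2 to 64.1 CPM across the controls and 38.3 to 213 CPM across the knockouts, with 0 of 9 tested markers called by edgeR. Ighm reached 68.2 and 75.8 CPM and Igkc 89.9 and 36.3 CPM in knockout 1 and 2, against at most 20.6 and 10.8 CPM in a control library, while Mzb1 and Ms4a1 stayed at or under 0.517 CPM in each library and Tnfrsf17 was at 0 in all but control 3. Beta cell markers fell in 3 of 10 cases, G6pc2, Mafa and Ucn3. The count was 7 of 10 with the acinar covariate and 1 of 10 with length and GC offsets. In the same order 3.35%, 5.06% and 4.52% of all genes were called lower. Beta cell markers summed to 188856 to 243871 CPM across the controls and 141769 to 159527 CPM across the knockouts. Mafa lost its call without control 1, control 3 or knockout 1 and with length and GC offsets (edgeR adjusted p 0.0607 to 0.0810), and Ucn3 without control 1, knockout 1 or knockout 2 and with those offsets (0.0547 to 0.181). Delta cell markers fell in 2 of 4, Sst and Rbp4, and their sum was 3327 to 5290 CPM across the controls and 2123 to 2582 CPM across the knockouts. Sst lost its call without control 1, control 2, knockout 1 or knockout 2 (edgeR adjusted p 0.0545 to 0.0880), and Rbp4 with length and GC offsets and whichever library but control 3 was left out (0.0529 to 0.229). Of 6 duct and 6 endothelial markers 1 each rose, Cftr and Cdh5, beside 3.72% of all genes. The summed duct markers were nevertheless lower in each knockout library, at 1899 to 2418 CPM across the controls and 1218 to 1656 CPM across the knockouts. Endothelial markers summed to 190 to 224 CPM across the controls and 227 to 286 CPM across the knockouts. Cftr lost its call without control 2, knockout 1 or knockout 2 (edgeR adjusted p 0.0514 to 0.0786), and Cdh5 with upper-quartile factors and whichever library but control 3 or knockout 3 was left out (0.0564 to 0.172). None of these 7 markers was called without both shallow libraries. Alpha (6), PP (2), stromal (7) and leukocyte (5 tested) markers had no call. The part of beta, delta, duct, endothelial or plasma cell content in the decrease of the ER genes was not tested.

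The ERSE shown above was read against the change in expression. Of the 10 genes with an exact ERSE, 6 fell and 4 (Dnajc3, Canx, Syvn1 and Derl3) were not called, with a median log2 fold change of -0.71. Of the 24 with a window but no exact ERSE, 9 fell, among them Sdf2l1, Ppib and Dnajb11, and the median was -0.24. The other 2 genes that fell, Hyou1 and Manf, had no window at hand. The difference between these sets was not tested, and each set holds genes that fell and genes that were not called. Of all 12428 tested genes with a RefSeq window, 452 were called lower and 493 higher. Outside the 39, 27 genes carried an exact ERSE in their RefSeq windows, and of the 11 tested 4 fell: Alg12, Xlr3a, Xlr3b and Xlr3c. All 4 were picked out by their values, and the Xlr3 genes are near-identical copies whose counts are uncertain. Alg12, a mannosyltransferase that builds N-glycans in the ER, shares the window and the ERSE of Creld2 on the opposite strand. It measured 21.4, 25.9 and 21.5 CPM across the controls and 12.2, 14.5 and 13.9 CPM across the knockouts (log2 fold change -0.76, SE 0.152, edgeR adjusted p = 0.0110; 0.0759 without control 2).

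Log2 fold changes were higher for longer genes, with a Spearman's rho of 0.434 over the 39 genes and 0.212 over 18115 genes, given as descriptions because genes are not independent replicates. With offsets for transcript length and GC content in edgeR, 19 of the 39 were lower, the 17 among them, with 4.52% of all genes. The median of the 39 was -0.46 in that fit.

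Further genes of the pathway were read from lists drawn up by function. Of 30 other ER chaperones, cochaperones, isomerases and lectin-cycle genes, 5 fell and 0 rose by edgeR, with a median log2 fold change of -0.26. Over all genes 3.35% fell and 3.72% rose. In 10 of the 30 each knockout library lay below each control library, and in 1 above, beside 14.1% and 14.0% of all genes. Fkbp11 (ENSMUSG00000003355), a prolyl isomerase of secretory cells, measured 85.0, 105.9 and 67.0 CPM across the controls and 27.8, 28.6 and 22.1 CPM across the knockouts. Its decrease (log2 fold change -1.72, SE 0.169, edgeR adjusted p = 0.000127) was second in size to that of Sdf2l1 among the ER genes named here and was called in each of 16 alternatives. Mcfd2, a cargo receptor subunit, Mogs, the first glucosidase of N-glycan trimming, and the isomerase Fkbp14 also fell (log2 fold change -0.51, -0.48 and -0.95). The fifth was the J-domain gene Dnajc25, named after its value was seen. Mcfd2 lost its call without control 1, control 2 or knockout 1 (edgeR adjusted p 0.0677, 0.114 and 0.0861), and Mogs without control 2, knockout 1 or knockout 2 (0.147, 0.103 and 0.0589). Fkbp14 lost it whichever library but knockout 3 was left out (0.0629 to 0.107), and Dnajc25 whichever was left out (0.0555 to 0.249).

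Of 19 other disulfide isomerase and oxidoreductase genes tested, 4 fell and 0 rose, with a median log2 fold change of -0.08. The shares over all genes were 3.35% and 3.72%. In 5 of the 19 each knockout library lay below each control library, and in 3 above, beside 14.1% and 14.0% of all genes. Erp29, a redox-inactive PDI relative, fell from 123, 153 and 127 CPM in control to 81.0, 79.6 and 65.0 CPM across the knockouts (log2 fold change -0.84, SE 0.129, edgeR adjusted p = 0.00236). Selenof, Erp44, which retains ERO1 in the ER, and Vkorc1 fell by 0.60, 0.44 and 0.62 on the log2 scale. Selenof lost its call without control 1, control 2 or knockout 1 (edgeR adjusted p 0.0876, 0.103 and 0.0932), and Erp44 and Vkorc1 whichever library but control 3 was left out (0.0664 to 0.173 and 0.0707 to 0.169). With offsets for length and GC content Vkorc1 missed the threshold too (0.0626).

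Of 33 other ERAD genes 4 fell and 1 rose, with a median of -0.07, beside 3.35% and 3.72% of all genes called. In 8 of the 33 each knockout library lay below each control library, and in 3 above, beside 14.1% and 14.0% of all genes. Selenok and Selenos, selenoproteins of the ERAD membrane complex, measured 245 to 289 and 140 to 170 CPM across the controls and 132 to 151 and 81.2 to 89.8 CPM across the knockouts (edgeR adjusted p 0.000659 and 0.000941). Ufm1 and Ddrgk1, of the UFMylation pathway at the ER, also fell (log2 fold change -0.66 and -0.49). Erlin2, named after its value was seen, rose (0.47, edgeR adjusted p = 0.0402). Ddrgk1 lost its call whichever library but control 3 was left out (0.0559 to 0.134), and Erlin2 without control 1, control 2, knockout 1 or knockout 3 (0.139, 0.154, 0.0948 and 0.113).

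In a list of 17 further sensors and regulators of the stress response, 2 genes fell and 1 rose, with 7.07% of all genes called in either direction. Bhlha15 (MIST1), an XBP1 target of secretory cells, and Atf6b fell (log2 fold change -0.60 and -0.50), and Mbtps1, the protease that cleaves ATF6, rose (0.48, edgeR adjusted p = 0.0220). Bhlha15 lost its call without knockout 1 (0.0531), Atf6b without control 2, control 3, knockout 1 or knockout 2 (0.0609 to 0.0924), and Mbtps1 without control 1, control 2, knockout 1 or knockout 3 (0.0523 to 0.11) or with length and GC offsets (0.0662).

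In the PERK and ATF4 arm 1 of 26 genes fell, Phgdh of serine synthesis (log2 fold change -0.60, edgeR adjusted p = 0.0195), and 0 rose, beside 3.35% and 3.72% of all genes. That call was lost without control 2 (0.109) or knockout 1 (0.0769). In the same list 6 genes were lower and 1 higher with the acinar level as a covariate, beside 5.06% and 5.77% of all genes. With length and GC offsets 3 were lower and 1 higher, beside 4.52% and 4.03% of all genes. Atf4 measured 362 to 442 CPM across the controls and 295 to 329 CPM across the knockouts and was not called (edgeR adjusted p = 0.0864). Of 38 cytosolic chaperones 0 fell and 1 rose, Hspa2 (log2 fold change 0.76, edgeR adjusted p = 0.0118; lost without control 2 or knockout 1 at 0.0617 and 0.0560). Of 12 mitochondrial chaperones 1 fell, Hspe1, which encodes HSP10 (log2 fold change -0.90, edgeR adjusted p = 0.00306). Median log2 fold changes were -0.04 for the sensors and regulators, -0.12 for the PERK and ATF4 arm, -0.15 for cytosolic and -0.13 for mitochondrial chaperones. Of the 38 cytosolic chaperones 30 lay below 0 and 8 above. With the acinar covariate 2 of them were lower and 1 higher, and with length and GC offsets 3 lower and 1 higher. In 13 of the 38 each knockout library lay below each control library, and in 2 above, beside 14.1% and 14.0% of all genes. The numbers apart were 8 and 2 of 26 in the PERK and ATF4 arm. They were 4 and 0 of 12 mitochondrial chaperones and 2 and 3 of 17 sensors and regulators. Differences between these lists and the 39 genes were not tested.

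**Figure D5:**
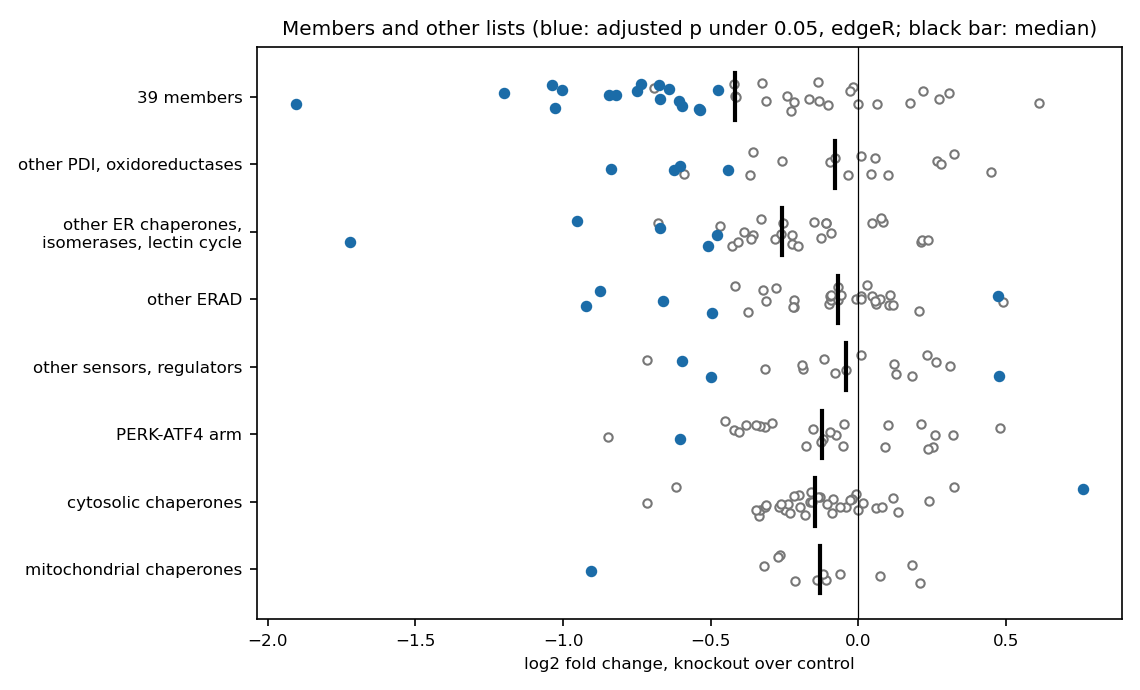
Log2 fold change (horizontal axis) of each tested gene of the 39 and of 7 further lists; points are genes, blue where the edgeR adjusted p was under 0.05 and open otherwise, and black bars are list medians. The median of the 39 is -0.42 with 17 blue points below 0, and the medians of the 7 further lists lie between -0.26 and -0.04.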

How the data were processed

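RNA of whole islets was sequenced in 3 control and 3 knockout libraries. The authors deposited raw counts per Ensembl gene ID for 56980 IDs. FastQC 0.11.9, Trim Galore 0.6.7, STAR 2.7.3a, featureCounts and the build GRCm39 are listed per the submitters' processing notes, while the annotation, the strand setting and how read pairs or multi-mapped reads were handled were not stated there. Without a stated strand setting, reads of a gene and an antisense or overlapping partner cannot be told apart. Even numbers made up 62.3% to 73.2% of each library's nonzero counts, which is seen where both mates of a pair are counted. Libraries of a group differed by more than sampling noise (lowest mean chi-square per gene 40.1), and all 6 were kept. Symbols were matched by ID for 52073 IDs, and exon lengths and GC content came from another annotation (GENCODE M21) by ID. Sequences are from RefSeq windows of build GRCm38.p6, and no coordinate was converted.

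In R 4.3.3 with edgeR 4.0.16, low counts were removed with filterByExpr, libraries were scaled by TMM, and a robust quasi-likelihood test compared knockout with control over 18558 genes. A gene is called at a Benjamini-Hochberg adjusted p below 0.05. The SE of a log2 fold change was derived from this test, as its absolute value over the square root of the F statistic. CPM values use TMM-scaled library sizes, and the fit was tested on simulated data. The 16 alternatives were DESeq2 size factors, upper-quartile factors, hormone and acinar genes out of library sizes, no filter, a filter of 1 CPM in 3 libraries, DESeq2 1.42.0, limma-voom (limma 3.58.1), the acinar level as a covariate, length and GC offsets, each library left out, and both shallow libraries left out. A fit with the column number as a replicate block was added after seeing the data. Sums and ratios were compared by a two-sided exact permutation test.

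The 39 genes, the further lists and the tests were chosen with earlier results of these data known. All 39 are named, with Ssbp3, Ins1 and Ins2, and of each further list up to 4 genes with the smallest p. Other genes, among them Tph1, Cish and the markers called, were named after their values were seen.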

Additional observations from a re-analysis of the deposited data

How the results depend on the processing

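Recomputed for each of the 39 genes under 16 alternatives, the log2 fold change kept its direction and side of the threshold in 530 cases, lost a call in 50, gained one in 26 and changed sign in 18. The 17 genes called lower numbered 9 to 15 of the same genes when 1 library was left out, and the total called lower was 9 to 16 (11 without control 2, 10 without knockout 2), 2 without both shallow libraries, where fewer samples were tested. Of the 17, 8 kept the call in each single leave-out. Genes of the 39 called higher numbered 0, and 1 (Ern1) with no filter, with DESeq2, with the acinar covariate and without knockout 2 (0 to 1 over the leave-outs). In the 7 further lists 17 genes were lower, against 27 with the acinar covariate, 27 with length and GC offsets, 1 without both shallow libraries and 6 to 16 without 1 library. The shares of all genes called lower were, in the same order, 3.35%, 5.06%, 4.52%, 0.252% and 1.16% to 3.07%. Higher genes in these lists numbered 3, against 5 with no filter, DESeq2 or the acinar covariate, 0 without both shallow libraries and 0 to 4 without 1 library. Of all genes 3.72% were higher. This share was 4.22% with no filter, 5.97% with DESeq2, 5.77% with the acinar covariate and 0.4% without both shallow libraries. It was 1.53% to 3.74% without 1 library. The log2 difference of the summed level, -0.54, was -0.43 on raw library totals and -0.45 without Hspa5, Hsp90b1, Calr and P4hb. With upper-quartile factors 829 of all genes were lower and 613 higher, against 621 and 691. The sign changes were in genes that were not called and lay near 0. Uggt1 was at 0.0063 with DESeq2 size factors, 0.0042 with hormone and acinar genes out of library sizes, 0.013 with no filter, 0.0063 with DESeq2, 0.017 without both shallow libraries and -0.15 to 0.086 without 1 library. Prdx4 was at 0.044 and Atf6 at -0.10 with length and GC offsets, and at -0.11 to 0.10 and -0.086 to 0.14 without 1 library. Dnajc10 ran from -0.071 to 0.036 and Edem3 from -0.10 to 0.30 over the same leave-outs. Leaving libraries out tests fewer samples, and for the other moved values the cause was not tested. Columns of both groups carry the numbers 1 to 3, and nothing in the labels says that a number marks a shared animal, litter or day. Deviations from the group means of same-numbered libraries correlated at 0.0162, 0.0806 and 0.0659 over 18558 genes, and each library correlated best with its own number, a hint from the data and not from the design. In both groups the number also followed depth, with library 1 the shallowest and library 3 the deepest. Summed acinar markers were highest in library 2 and lowest in library 3 of each group. What these correlations reflect was not tested. With the column number as a replicate block, chosen after seeing the data, edgeR called 21 of the 39 lower, the 17 among them, and 2 higher (Ern1 and Sel1l), and in the further lists 27 lower and 5 higher, with 5.32% of all genes lower and 6.02% higher. Derl3 had the lowest counts of the 39, at 4.04 to 9.37 CPM.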
